A study of Mus musculus with 8 samples.

Results

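The 28 genes described here are the core circadian clock genes and the best known clock output genes of the mouse, chosen by name from 56941 genes in the count table. The list holds the activators Arntl (also called Bmal1), Arntl2, Npas2 and Clock, their repressors, the nuclear receptors that set the rhythm of Arntl, the output factors of the bZIP class, clock kinases, and 4 genes that respond to glucocorticoid as well as to the clock. All 28 passed the filter on low counts and were among the 18025 genes tested.

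The study, on anaphylaxis to food and the uptake of allergens by the gut, sequenced messenger RNA from the jejunum, a stretch of the small intestine where most nutrients are taken up. C57BL/6 mice (B6) gave 4 libraries and C3H/HeJ mice (C3H) gave 4, all from naive animals. For all of them the labels give an age of 6 to 8 weeks and at least 8 weeks in shared cages. Mice younger than 8 weeks at harvest cannot have shared cages for 8 weeks, so these values do not settle the age at harvest. The libraries came from 1 batch, each from 200 ng of RNA whose integrity score (RIN) exceeded 7. No group received an agent or carried an engineered allele, so the only factor the labels give is the inbred strain. Libraries are named here by strain and label number, B6 2, 3, 4 and 5 and C3H 1, 3, 4 and 5. The labels do not say that each library is a separate mouse, so a p-value here speaks of the spread among these libraries, which may be technical. The hour of harvest is not given in the sources used here, and strain and hour of harvest cannot be told apart.

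The clock of a mammalian cell is a loop of transcription. ARNTL pairs with CLOCK or NPAS2, binds E-boxes and switches on Per, Cry, Nr1d1, Nr1d2, Dbp, Tef and Hlf; PER and CRY proteins then shut the pair down, while the NR1D receptors repress Arntl, Npas2, Clock, Nfil3 and Cry1 against the opposing ROR receptors. In peripheral tissues of mice the transcripts of the repressed arm therefore peak at another time of day than those of the E-box arm, and in the gut the clock is known to follow feeding time and to drive daily rhythms of nutrient transport. A sample taken at a later or earlier phase would differ in both arms, and within an arm the genes do not peak at the same hour. For the counts below, Arntl, Npas2, Clock, Nfil3 and Cry1 are called the Arntl arm, and Nr1d1, Nr1d2, Dbp, Tef, Hlf, Ciart, Per1, Per2, Per3, Usp2, Bhlhe41 and Wee1 are called the Dbp/Per arm.

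Library totals ran from 37205896 to 58251332 counts, B6 4 being the deepest. Same-strain libraries differed by far more than sampling noise (chi-square over degrees of freedom between 23.3 and 89.6), so no library was a copy of another. Levels of single genes are given as counts scaled to library size (CPM) after TMM scaling. Sums over marker lists, here and below, are CPM by library total alone, without TMM. The 8 enterocyte markers were detected in every library. Their sums were 26891 to 29358 CPM in B6 and 25440 to 32125 CPM in C3H. Of these 8, 0 passed the edgeR test (1 at an unadjusted p under 0.05, 1 with DESeq2 and 0 with limma-voom). The ileal marker Fabp6 was near 0 in every library. The 8 pancreatic markers summed to 22.6 to 217 CPM in B6 and 54.4 to 2682 CPM in C3H, highest in C3H 3 and C3H 5, with 1 of 8 called; Prss2 and Pnlip were at 0 in C3H 1 and Cela3b in B6 4. The 6 immune markers summed to 1255 to 1623 CPM in B6 and 900 to 1367 CPM in C3H, with 3 lower. Of 4 endothelial markers 2 were higher, Kdr at a log2 fold change of 0.53 (adjusted p = 0.00395) and Tie1 at 0.52 (adjusted p = 0.00596), with no overlap. The neuronal marker Uchl1 was lower (-0.48, adjusted p = 0.0149), and the 6 adipose markers summed to 146 to 173 CPM in B6 and 153 to 421 CPM in C3H, highest in C3H 3. Over all 18025 genes tested, 11.3% were called higher in C3H and 10.1% lower, and 5970 had an unadjusted p under 0.05. For 12.7% of all genes every C3H library lay above every B6 library. The part of these lists in the clock results was not tested. In bulk tissue, fewer cells of a type and less RNA per cell cannot be told apart.

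Arntl was lower in C3H, and Per3, Hlf, Wee1 and Tsc22d3 were higher. Nr1d1 was lower in C3H too, by a smaller amount. The other 22 members did not pass an adjusted p of 0.05 (edgeR quasi-likelihood test, Benjamini-Hochberg over 18025 genes). The 6 called members are 21.4% of the 28, and 21.4% of all genes tested were called between the strains, so the share is the background and is not a result about the clock genes. By direction, 4 members were higher against 11.3% of all genes, and 2 were lower against 10.1%. At an unadjusted p under 0.05 there were 13 members, against 5970 of all 18025 genes. The median log2 fold change, C3H over B6, was 0.13 over the members and 0.03 over all genes tested. A positive value was seen in 21 members and a negative one in 7, against 9723 and 8302 of all 18025 genes.

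**Figure D1:**
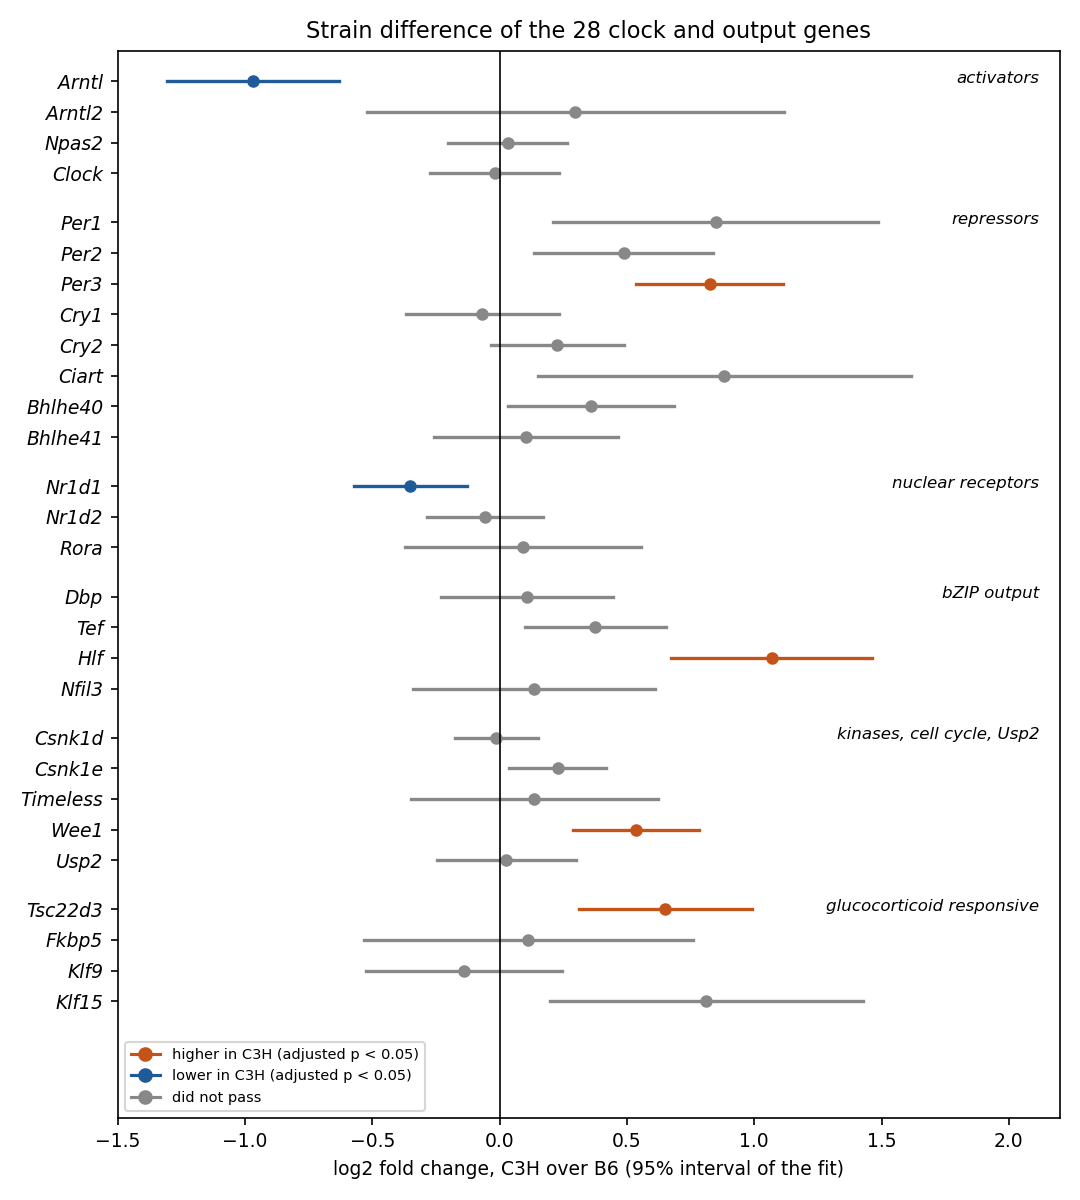
Log2 fold change of each of the 28 genes, C3H over B6 (x axis), with the 95% interval of the edgeR fit, genes grouped by role (y axis). Orange points are the 4 genes higher in C3H, blue points the 2 lower ones, and grey points the 22 that did not pass; Arntl lies farthest to the left at -0.97 and Hlf farthest to the right at 1.07.

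Separation of the libraries gave a similar count. For 5 members every C3H library lay above every B6 library, namely Hlf, Per3, Tsc22d3, Wee1 and Csnk1e, and 12.7% of all genes showed this pattern. For Arntl and Nr1d1 every C3H library lay below every B6 library, as it did for 11.7% of all genes. The other 21 members overlapped between the strains.

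Among the activators, Arntl was the only member that passed, and its partners did not. Its promoter window holds a match to the ROR response element (RORE), the site that ROR receptors and the NR1D repressors share, and it is printed to show the element through which the receptors described below are known to act on this gene. The stretch lies 17 to 45 bases after an annotated start on the plus strand of RefSeq's GRCm38.p6 genome, chr7:113207528-113207556, with the match in capitals.
Arntl: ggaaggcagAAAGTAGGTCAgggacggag
Of 24 members with a promoter window in the RefSeq table (250 bases before to 50 after a start), 1 held the RORE, against 0.459% of 27025 genes. A match is a description of the letters and not evidence of binding.

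Arntl, an activator of the core loop, stood at 7.57, 8.60, 8.39 and 7.80 CPM in B6 2, 3, 4 and 5 and at 5.50, 4.11, 3.32 and 3.55 CPM in C3H 1, 3, 4 and 5. The groups did not overlap, and C3H 1 lay nearest to B6. The means were 8.09 ± 0.485 and 4.12 ± 0.975 CPM (SD, n = 4 each), a log2 fold change of -0.97 (SE 0.15, 95% interval -1.31 to -0.63, adjusted p = 0.000890), or 1.96-fold lower in C3H. With each library left out in turn the value ran from -1.15 to -0.88 and the gene stayed called.

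Its partner genes did not pass. Npas2, which can stand in for CLOCK, had 18.9, 23.7, 21.4 and 23.3 CPM in B6 and 19.5, 20.7, 25.5 and 23.7 CPM in C3H. Clock itself had 89.0, 69.2, 89.1 and 63.8 CPM in B6 and 74.2, 81.0, 76.3 and 75.7 CPM in C3H. The strains overlapped in both genes; for Clock all C3H values lay within the B6 range, and for Npas2 C3H 4 lay above it. The log2 fold change of Npas2 was 0.03 (95% interval -0.20 to 0.26) and that of Clock -0.02 (-0.27 to 0.24), so a change of the size seen in Arntl lay outside both intervals. Arntl2, a paralog of Arntl with little expression in most tissues, had 66 counts in all of B6 and 79 in all of C3H, and its log2 fold change of 0.30 had an interval of -0.52 to 1.12.

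The Arntl arm as a whole had 0 members higher and 1 lower of 5, against 11.3% of all genes higher and 10.1% lower. Its median log2 fold change was -0.02. Nfil3, a bZIP repressor that competes with DBP, TEF and HLF for their sites, had 4.06, 2.45, 2.13 and 2.75 CPM in B6 and 4.10, 2.84, 2.58 and 2.87 CPM in C3H. Cry1, the repressor that acts late in the cycle, had 16.2 ± 2.91 CPM in B6 and 15.4 ± 2.06 CPM in C3H (SD, n = 4 each). Both overlapped between the strains throughout. Their log2 fold changes were 0.13 (95% interval -0.34 to 0.61) and -0.07 (-0.37 to 0.23). Arntl was thus the 1 gene of its arm with a called difference.

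Among the nuclear receptors that act on Arntl, the repressor gene Nr1d1 (REV-ERB alpha) was lower in C3H, in the same direction as Arntl. It stood at 197, 239, 207 and 238 CPM in B6 and at 151, 187, 167 and 186 CPM in C3H. All 4 C3H libraries lay below the lowest B6 library. The means were 220.4 ± 21.4 and 172.9 ± 17.2 CPM (SD, n = 4 each), and the log2 fold change was -0.35 (SE 0.10, adjusted p = 0.0295). This call rested on single libraries: it was lost without B6 3, without B6 5, without C3H 1 and without C3H 4, where the adjusted p reached 0.0933 at most, while the log2 value stayed between -0.42 and -0.30. Nr1d1 shares 263 exon bases, 8.55% of its exon length in GENCODE M21, with Thra on the other strand, and the strand setting of the counting is not given in the sources used here, so reads from the shared stretch cannot be told apart. Thra, looked at for this overlap after it was found, had a log2 fold change of -0.27 (adjusted p = 0.0508).

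Its paralog Nr1d2 (REV-ERB beta) did not pass. Nr1d2 had 122, 106, 132 and 93.9 CPM in B6 and 109.7, 109.5, 109.1 and 107.4 CPM in C3H. The 4 C3H libraries were almost equal, with a coefficient of variation of 0.966%, and sat inside the wider B6 range. The log2 fold change was -0.06 (95% interval -0.29 to 0.17). Rora, the gene of an activating ROR receptor, had 3.21 to 5.79 CPM in B6 and 3.14 to 5.29 CPM in C3H, with a log2 fold change of 0.09 (95% interval -0.37 to 0.56).

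**Figure D2:**
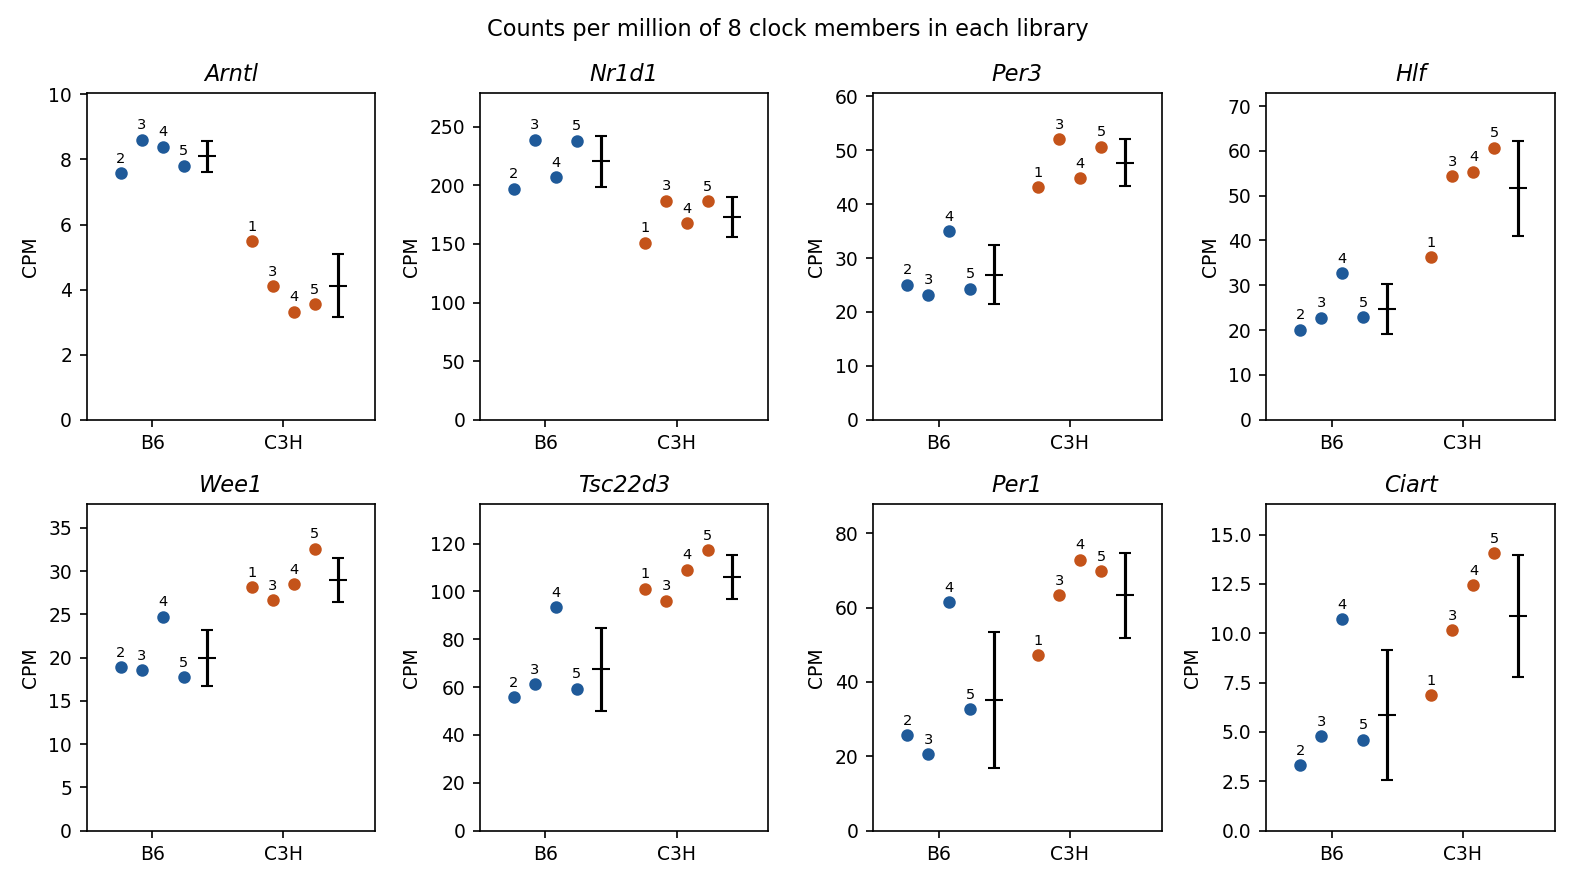
Level of 8 of the 28 genes in each library (y axis, CPM after TMM scaling, from 0), B6 and C3H side by side (x axis), numbered by library, with the mean and SD of each strain as a black bar. Arntl and Nr1d1 separate downward in C3H, Per3, Hlf, Wee1 and Tsc22d3 separate upward, and B6 4 lies above the other B6 libraries in the panels of Per3, Hlf, Wee1, Tsc22d3, Per1 and Ciart.

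The repressors of the ARNTL complex had 1 member higher and 0 lower of 8, against 11.3% of all genes higher and 10.1% lower. Of the 8 values 7 were positive, as were 9723 of all 18025 genes. Per3 was the called member. Its promoter window held 2 D-boxes, the element that DBP, TEF, HLF and NFIL3 bind, and the stretch is printed to show that element. Of the genes of these factors Hlf passed, and Dbp, Tef and Nfil3 did not. A link between any of them and the level of Per3 was not tested. The stretch runs from 217 to 139 bases before the start on the minus strand, chr4:151044804-151044882 (GRCm38.p6), with the D-boxes in capitals.
Per3: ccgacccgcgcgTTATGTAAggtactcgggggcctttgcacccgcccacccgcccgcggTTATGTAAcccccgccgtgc
The D-box was searched as TTATGTAA or TTACGTAA on both strands. It was found in 2 of the 24 members with a window, Per3 and Timeless, and in 1.23% of all 27025 genes.

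Per3, a period gene that the core loop can run without, stood at 25.1, 23.2, 35.0 and 24.3 CPM in B6 and at 43.1, 52.0, 44.9 and 50.7 CPM in C3H. All 4 C3H libraries lay above B6 4, the highest of B6. The means were 26.9 ± 5.45 and 47.7 ± 4.34 CPM (SD, n = 4 each), a log2 fold change of 0.82 (SE 0.13, 95% interval 0.54 to 1.11, adjusted p = 0.000914), or 1.77-fold higher in C3H. The value ran from 0.76 to 0.98 with each library left out in turn, and the gene stayed called.

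Per1 and Per2, the period genes that carry the negative feedback and that also respond quickly to glucocorticoid and feeding, leaned the same way and did not pass. Per1 had 25.7, 20.5, 61.5 and 32.7 CPM in B6 and 47.2, 63.4, 72.9 and 69.8 CPM in C3H. Per2 had 47.1, 45.9, 67.2 and 39.5 CPM in B6 and 59.8, 69.0, 67.2 and 84.1 CPM in C3H. In both genes the 1 B6 library that reached into the C3H range was B6 4. The log2 fold change was 0.85 for Per1 (SE 0.29, adjusted p = 0.0602) and 0.49 for Per2 (SE 0.16, adjusted p = 0.0511). Without B6 4 they were 1.26 (edgeR adjusted p = 0.000756) and 0.66 (edgeR adjusted p = 0.00389). B6 4 was singled out for its values, so a larger difference without it follows from that choice, here and for the genes below. With each library left out in turn, Per1 ran from 0.66 to 1.26 (edgeR adjusted p at most 0.145). Per2 ran from 0.39 to 0.66 (edgeR adjusted p at most 0.130).

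Ciart, a repressor of the CLOCK and ARNTL complex with a strong daily rhythm, behaved like Per1. It had 3.32, 4.78, 10.7 and 4.61 CPM in B6 and 6.87, 10.2, 12.4 and 14.0 CPM in C3H. B6 4 lay above C3H 1 and C3H 3, and the other 3 B6 libraries lay below all of C3H. The log2 fold change was 0.88 (SE 0.33, adjusted p = 0.0855), and 1.35 without B6 4 (adjusted p = 0.00246). Over left-out libraries it ran from 0.68 to 1.35, with an edgeR adjusted p of at most 0.188.

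The remaining repressors did not pass. Cry2 had a log2 fold change of 0.23 (adjusted p = 0.216). Bhlhe40 and Bhlhe41, the DEC repressors that compete for E-boxes, had values of 0.36 (adjusted p = 0.115) and 0.10 (adjusted p = 0.717). Bhlhe40 ranged from 75.5 to 117 CPM in B6 and from 103 to 138 CPM in C3H, its highest B6 library again being B6 4.

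E-boxes near the start are the sites through which the ARNTL complex is known to act, and those of the overlapping genes Ciart, Per1, Tef and Cry1 are printed to show members that share the element and differ in how they moved. The letters searched were CACGTG, which reads the same on both strands and is set in capitals. The stretches, in GRCm38.p6, are chr3:95882255-95882356 (minus strand) for Ciart, chr11:69098771-69098800 (plus) for Per1, chr15:81802534-81802563 and chr15:81811264-81811293 (plus, 2 starts) for Tef, and chr10:85185097-85185126 (minus) for Cry1.
Ciart: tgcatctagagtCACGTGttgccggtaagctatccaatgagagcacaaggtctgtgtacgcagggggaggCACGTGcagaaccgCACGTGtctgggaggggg
Per1: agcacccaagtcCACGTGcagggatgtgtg
Tef, start 1: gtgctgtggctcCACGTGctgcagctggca
Tef, start 2: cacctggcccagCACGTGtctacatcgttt
Cry1: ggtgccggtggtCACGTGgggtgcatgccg
Ciart held 3 E-boxes in 102 bases. An E-box was found in 7 of the 24 members with a window (29.2%), against 8.09% of all 27025 genes; the 7 were Bhlhe41, Ciart, Cry1, Fkbp5, Klf15, Per1 and Tef. None of these 7 passed the test between strains, and their log2 fold changes ran from -0.07 for Cry1 to 0.88 for Ciart. Wee1, which passed, had no window in the table, and neither had Per2, Bhlhe40 and Csnk1d. Only the exact letters inside the windows were searched, so variant or more distant E-boxes were not counted. A member outside these 7 may therefore still have an E-box.

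The bZIP output factors carry the rhythm to detoxification and metabolic genes through D-boxes. They had 1 member higher and 0 lower of 4, against 11.3% of all genes higher and 10.1% lower. Hlf had the largest log2 fold change of the 28 genes. It stood at 20.1, 22.8, 32.7 and 22.8 CPM in B6 and at 36.3, 54.3, 55.3 and 60.7 CPM in C3H. The groups did not overlap, with B6 4 the highest of B6 and C3H 1 the lowest of C3H. The means were 24.6 ± 5.56 and 51.7 ± 10.6 CPM (SD, n = 4 each), a log2 fold change of 1.07 (SE 0.18, 95% interval 0.67 to 1.46, adjusted p = 0.00130), or 2.10-fold higher in C3H. Left-out libraries moved it between 0.96 and 1.23.

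Its 2 relatives did not pass. Tef had 124, 125, 160 and 122 CPM in B6 and 140, 171, 178 and 202 CPM in C3H, and C3H 1 was the 1 library of C3H below B6 4. The log2 fold change of Tef was 0.38 (SE 0.13, adjusted p = 0.0559). Dbp, the output gene that is often used to read the phase of the clock, had 99.3, 130, 166 and 148 CPM in B6 and 124, 142, 143 and 176 CPM in C3H. The Dbp values of the strains were interleaved, with a log2 fold change of 0.11 (95% interval -0.23 to 0.45, adjusted p = 0.684). The difference seen in Hlf therefore lay outside the interval of Dbp. Dbp shares 539 exon bases, 18.0% of its exon length, with Sphk2 on the other strand; Sphk2, looked at for this overlap, had a log2 fold change of -0.33 (adjusted p = 0.0292).

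Among the kinases and cell-cycle outputs, Wee1 was higher in C3H and the others did not pass. Wee1, a kinase that holds cells before mitosis and is a known clock target, stood at 18.9, 18.5, 24.7 and 17.8 CPM in B6 and at 28.1, 26.6, 28.5 and 32.6 CPM in C3H. The strains did not overlap. The means were 19.98 ± 3.21 and 29.0 ± 2.54 CPM (SD, n = 4 each), and the log2 fold change was 0.53 (SE 0.11, adjusted p = 0.00568), or 1.45-fold higher. By library total without TMM, the 6 proliferation markers summed to 217 to 332 CPM in B6 and 205 to 426 CPM in C3H. Of these 6, 0 passed the edgeR test, against 21.4% of all genes. There was 1 at an unadjusted p under 0.05, and 1 each with DESeq2 and limma-voom.

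Csnk1d and Csnk1e encode the casein kinases that mark PER proteins for decay. Csnk1d varied little, with 124 to 135 CPM in B6, 123 to 137 CPM in C3H and a log2 fold change of -0.01 (95% interval -0.18 to 0.15). Csnk1e had 11.7, 12.01, 10.7 and 12.5 CPM in B6 and 14.7, 13.4, 12.6 and 14.2 CPM in C3H. These did not overlap, but the gap between B6 5 and C3H 4 was small and the log2 fold change of 0.23 did not pass (adjusted p = 0.0906). Timeless, which acts in DNA replication, had 0.14 (95% interval -0.35 to 0.62). Usp2, a deubiquitinase with a strong daily rhythm in many tissues, had 84.1, 101, 100 and 89.1 CPM in B6 and 74.5, 90.9, 107 and 109 CPM in C3H, and its log2 fold change was 0.03 (95% interval -0.25 to 0.30).

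Of the 4 members that respond to glucocorticoid, Tsc22d3 was higher in C3H and the other 3 did not pass. Tsc22d3 (GILZ), a classic glucocorticoid target, stood at 55.7, 61.3, 93.4 and 59.4 CPM in B6 and at 101, 96.2, 109 and 117 CPM in C3H. B6 4 came within 3 CPM of the lowest C3H library, and the other B6 libraries lay far below. The means were 67.4 ± 17.5 and 105.9 ± 9.29 CPM (SD, n = 4 each), a log2 fold change of 0.65 (SE 0.15, adjusted p = 0.0108), or 1.57-fold higher.

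Fkbp5, a chaperone gene that glucocorticoid also switches on, had 13.4, 13.4, 33.7 and 12.9 CPM in B6 and 16.2, 17.5, 24.5 and 21.5 CPM in C3H. B6 4 was the highest of all 8 libraries, and the other 3 B6 libraries were the lowest. The log2 fold change was 0.11 (SE 0.29, adjusted p = 0.835) and without B6 4 it was 0.58 (adjusted p = 0.0135). Left-out libraries moved it between -0.03 and 0.58, with an edgeR adjusted p of at most 0.998. Klf15, a factor of amino acid metabolism, had 7.65, 7.08, 14.9 and 13.0 CPM in B6 and 10.4, 20.6, 22.8 and 21.2 CPM in C3H. Its log2 fold change was 0.81 (SE 0.28, adjusted p = 0.0619). Klf9 had 30.97, 28.6, 46.4 and 26.4 CPM in B6 and 25.6, 29.4, 37.1 and 28.04 CPM in C3H, with a log2 fold change of -0.14 (adjusted p = 0.635); B6 4 was again the highest library.

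Arm by arm, the Dbp/Per arm had 3 members higher, 1 lower and 8 that did not pass of 12 (33.3% called, against 21.4% of all genes, 11.3% higher and 10.1% lower). Its median log2 fold change was 0.43, and 10 of the 12 values were positive, against 9723 of all 18025 genes. Nr1d1, the gene that was lower, is itself an E-box target like the period genes. The mean log2 CPM of the Dbp/Per arm was 5.06, 5.13, 5.60 and 5.15 in B6 and 5.44, 5.68, 5.70 and 5.81 in C3H. That of the Arntl arm was 3.92, 3.83, 3.88 and 3.74 in B6 and 3.80, 3.60, 3.60 and 3.67 in C3H. In both arms the strains overlapped, through B6 4 and C3H 1 in the Dbp/Per arm and through B6 5 and C3H 1 in the Arntl arm.

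The means of the arms leaned in opposite directions. The Dbp/Per arm was 0.42 higher in C3H on the log2 scale (5.23 ± 0.245 in B6 and 5.66 ± 0.157 in C3H, SD, n = 4 each). The Arntl arm was 0.18 lower (3.84 ± 0.0758 and 3.67 ± 0.0952), and within it 1 gene, Arntl, passed, at a log2 fold change of -0.97. The other genes of that arm lay on both sides of 0, with Npas2 at 0.03, Clock at -0.02, Nfil3 at 0.13 and Cry1 at -0.07. The lean of the Arntl arm was thus that of 1 gene and not of the arm as a set. The difference, Arntl arm minus Dbp/Per arm, was -1.14, -1.30, -1.71 and -1.41 in B6 and -1.64, -2.08, -2.10 and -2.14 in C3H, so B6 4 and C3H 1 crossed. Without the 4 libraries richest in pancreatic transcripts (B6 2, B6 3, C3H 3 and C3H 5) the Dbp/Per arm was 0.19 higher in C3H, and the strains' mean difference between the arms was -0.31 in place of -0.60. The libraries left were B6 4, B6 5, C3H 1 and C3H 4. They include the pair that crossed, and the part of pancreatic transcripts was not tested. Members did not move as 1 block: Dbp, Nr1d2, Usp2, Npas2, Clock and Cry1 lay near 0, while Hlf, Per3 and Arntl did not. Whether the pattern follows the phase of the clock was not tested, since each strain was sampled without a stated hour.

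**Figure D3:**
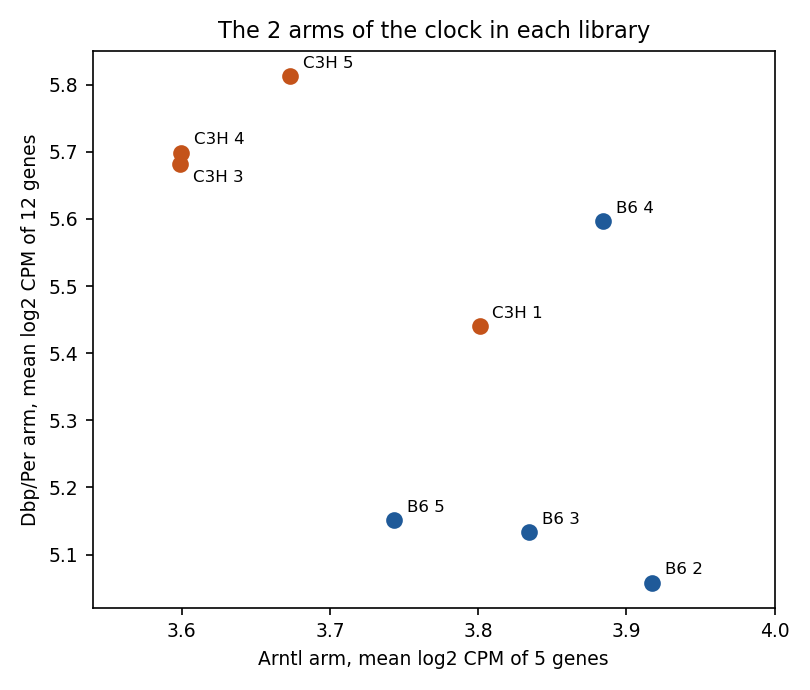
Mean log2 CPM of the 12 genes of the Dbp/Per arm (y axis) against that of the 5 genes of the Arntl arm (x axis), 1 point for each of the 8 libraries, B6 in blue and C3H in orange. C3H 3, 4 and 5 lie at the upper left and B6 2, 3 and 5 at the bottom; B6 4 (5.60 on the y axis) and C3H 1 (5.44) lie between them.

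Libraries of 1 strain differed among themselves in these genes. B6 4 was the highest B6 library for 17 of the 28 members and for 9 of the 12 genes of the Dbp/Per arm, against 24.9% of all genes. It lay inside the range of the C3H libraries for 14 members, 7 of them in that arm, against 41.4% of all genes. C3H 1, C3H 3 and C3H 4 lay inside the B6 range for 15, 14 and 14, against 36.8%, 40.1% and 48.6% of all genes. For B6 2, B6 3, B6 5 and C3H 5 the counts were 8, 9, 12 and 9, against 44.2%, 41.9%, 45.1% and 41.9%. C3H 1 was the lowest C3H library for 16 members and for 9 of the 12, against 30.1% of all genes. For Arntl, B6 4 at 8.39 CPM stayed with its strain. B6 4 was the deepest library, and whether depth plays a part was not tested.

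**Figure D4:**
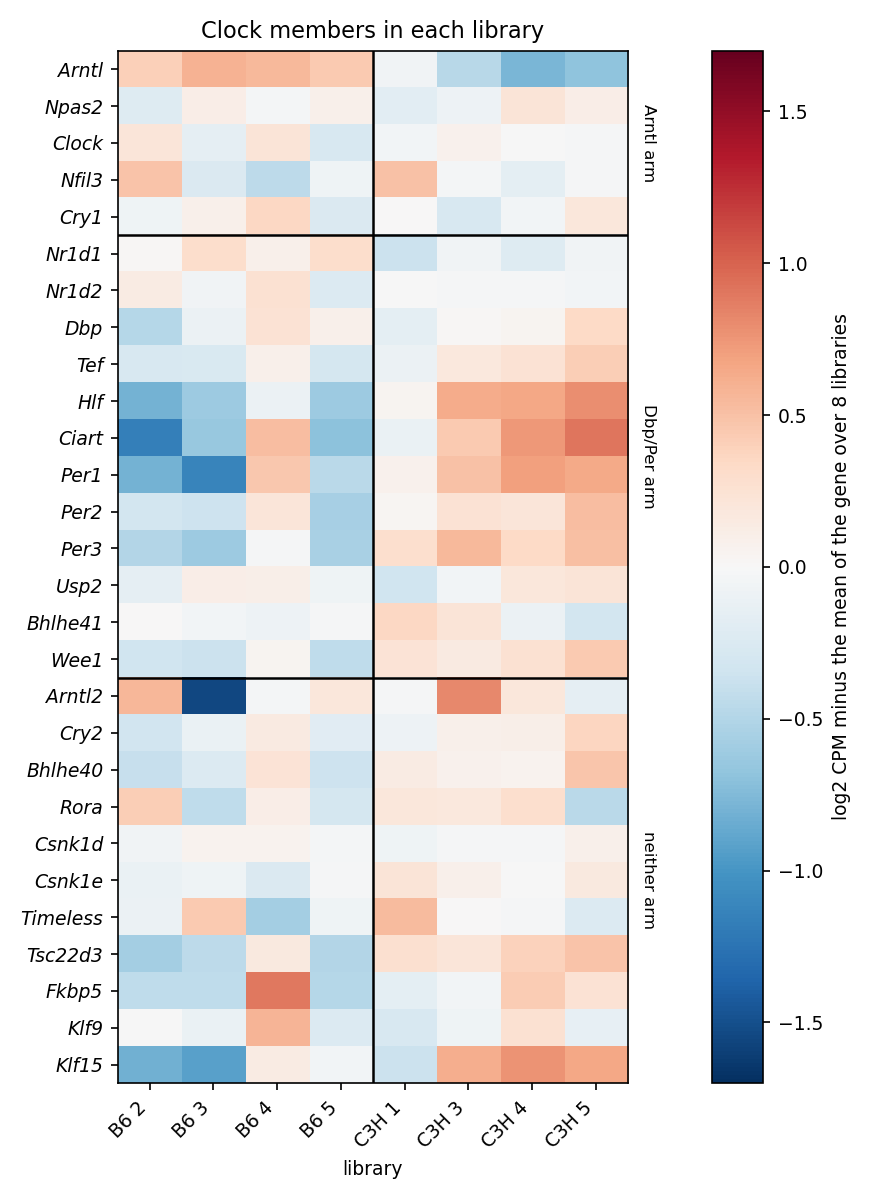
Log2 CPM of each of the 28 genes (rows, by arm) in each of the 8 libraries (columns), as the difference from the gene's mean over all libraries; red is above and blue below that mean. The B6 4 column is redder than the other B6 columns over the Dbp/Per arm and the glucocorticoid-responsive genes, while its Arntl cell matches B6.

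Counts of called members moved with these libraries. Without B6 4, 11 members were higher and 2 lower, 46.4% of the 28 against 19.4% of all genes; Bhlhe40, Ciart, Fkbp5, Klf15, Per1, Per2 and Tef joined the 6. Without C3H 1, 9 were higher and 1 lower (35.7% against 19.9%). Without B6 2, C3H 3 or C3H 5 the same 6 were called. The 4 libraries richest in pancreatic transcripts were B6 2, B6 3, C3H 3 and C3H 5. Without them B6 4, B6 5, C3H 1 and C3H 4 remained, and edgeR called 0 members, against 9.02% of all genes. At an unadjusted p under 0.05 there were 6 members, and the share of all genes at that cut is not given here. In the libraries that remained, Arntl had a log2 fold change of -0.88 (edgeR adjusted p = 0.0546). In those 4 libraries the log2 fold changes of Hlf, Per3, Wee1 and Tsc22d3 were 0.71, 0.56, 0.41 and 0.45, each smaller than with all libraries, and that of Nr1d1 was -0.49, a larger difference. B6 4 and C3H 1, whose arm differences crossed, were among those 4. Without C3H 3 and C3H 5 together, 3 were higher and 2 lower (17.9% against 13.4%), and Tsc22d3 had an adjusted p of 0.0555 at a log2 fold change of 0.64, close to its value with all libraries.

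**Figure D5:**
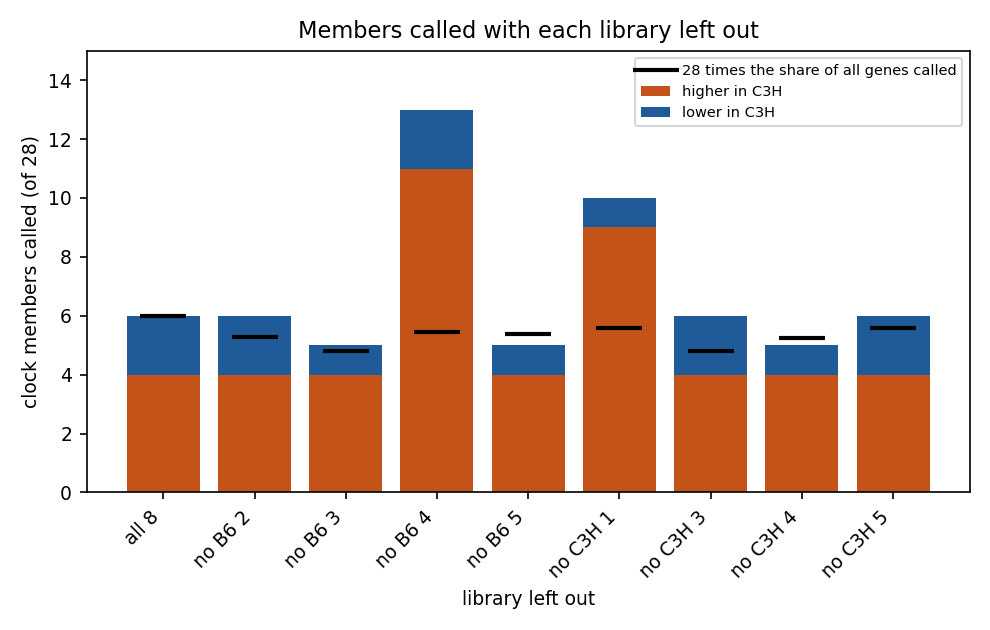
Number of the 28 genes called higher (orange) or lower (blue) in C3H (y axis) with all 8 libraries and with each library left out in turn (x axis), adjusted p under 0.05; the short black lines are the share of all genes called, times 28. The bars are tallest without B6 4, at 11 higher and 2 lower, and without C3H 1, at 9 higher and 1 lower.

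Levels can be compared between genes only per length, here as CPM per kilobase of exon in GENCODE M21. Nr1d1 was the most abundant member at 71.6 ± 6.96 in B6 and 56.2 ± 5.58 in C3H, followed by Dbp at 45.3 ± 9.45 and 48.8 ± 7.22. The means of the strains put both in the same order, but in C3H their spreads overlapped. Csnk1d was the third in both strains, at 25.9 in B6 and 25.7 in C3H. Tsc22d3 was at place 8 in B6 and place 4 in C3H, and its level of 24.4 in C3H lay within the spread of Bhlhe40 at 24.2. Arntl was among the scarcest, at 1.08 ± 0.0644 in B6 and 0.547 ± 0.130 in C3H, and its spread in B6 overlapped that of Nfil3, the gene before it in the order. Bhlhe41 and Arntl2 were the lowest in both strains.

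Other genes that regulate the clock gave 3 higher and 1 lower of 19 tested, out of 20 listed; the 21.1% called is close to the 21.4% of all genes. Among those higher, Prkaa2, a catalytic subunit of the energy sensor AMPK, which marks CRY1 for decay, had a log2 fold change of 0.96 (adjusted p = 9.55e-05). Id2, an inhibitor of helix-loop-helix factors, had 0.50 (adjusted p = 0.010). Fbxl21, a ligase gene for CRY, had -2.17 (adjusted p = 0.000720) on 219 counts in B6 and 46 in C3H.

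Glucocorticoid genes outside the 28 gave 0 calls of 14 tested with edgeR, with 2 at an unadjusted p under 0.05, and 0 with DESeq2 and 1 with limma-voom. Over all 18025 genes, 21.4% were called with edgeR, and 5970 had an unadjusted p under 0.05. Sgk1, a kinase gene that glucocorticoid and aldosterone switch on, had 70.2, 65.1, 265 and 78.4 CPM in B6 and 146, 252, 306 and 338 CPM in C3H. B6 4 thus lay inside the C3H range for Sgk1, as it did for Per1. Its log2 fold change was 1.12 (adjusted p = 0.0973), and 1.87 without B6 4 (adjusted p = 0.000418). Left-out libraries moved it between 0.92 and 1.87, with an edgeR adjusted p of at most 0.215. Cdkn1a had -0.03 (adjusted p = 0.891).

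Genes known to respond to fasting, many of them through the receptor PPAR alpha, gave 7 higher and 0 lower of 9 tested, out of 10 listed, against 11.3% of all genes higher and 10.1% lower. The list was chosen with earlier results of these data known, so this contrast is a description only. For 4 of the 9 every C3H library lay above every B6 library (12.7% of all genes), and 5 overlapped. Among them Acot1, a thioesterase, had a log2 fold change of 2.08 (adjusted p = 2.21e-05). Cpt1a, which takes fatty acids into mitochondria, had 0.77 (adjusted p = 0.000491), and Acadm, an enzyme of their oxidation, had 0.35 (adjusted p = 0.00828). Feeding state at harvest is not given in the sources used here, and its part in the clock results was not tested.

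Rhythmic transport genes of the gut gave 0 higher and 1 lower of 12, the peptide carrier Slc15a1 at -0.43 (adjusted p = 0.0429), against 21.4% of all genes called in either direction. Temperature and heat shock genes gave 0 higher and 2 lower of 8, against 11.3% of all genes higher and 10.1% lower. The 2 were the chaperone genes Hspa8 at -0.49 (adjusted p = 0.0186) and Dnajb1 at -0.25 (adjusted p = 0.0430). Of 10 immediate early genes 2 were higher and 0 lower, against the same shares of all genes. The 2 were Ier3 at 0.53 (adjusted p = 0.0163) and Ier2 at 0.28 (adjusted p = 0.0442). The list's median was -0.23, with 7 of 10 values negative, against 8302 of all 18025 genes. In it 5 genes had an unadjusted p under 0.05, against 5970 of all 18025 genes. They were the called pair and, with negative values, Jun, Egr1 and Atf3. Several of these calls were not kept: of 20 alternative fits Slc15a1 was called in 12, Hspa8 in 13, Dnajb1 in 7, Ier3 in 17 and Ier2 in 6. Of the melatonin genes, Aanat and Mtnr1b had 0 counts in every library. By library total without TMM, this allows up to 0.0806 CPM in the shallowest library (3 counts, counting error only). Asmt had 3 counts in B6 and 6 in C3H, and Mtnr1a had a log2 fold change of -0.08 (adjusted p = 0.901).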

How the data were processed

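Jejunum RNA of 8 libraries was prepared with a stranded mRNA kit, per the labels' protocols. The deposited values are whole-number counts per gene, made by the authors with STAR 2.7.9a, HTSeq 2.0.2 and GRCm39, per the submitters' processing notes. That genome derives from C57BL/6, so reads of C3H alleles can map less well. The strand setting is not given in the sources used here. Symbols came from GENCODE M21 for 51948 of 56941 gene IDs.

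Counts were filtered (filterByExpr, minimum count 10), scaled by TMM and tested with edgeR 4.0.16 (quasi-likelihood, 8 libraries, no covariate; R 4.3.3), with p-values adjusted by Benjamini-Hochberg over 18025 genes and a threshold of 0.05. Log2 CPM used a prior count of 2. The members and lists were chosen with earlier results of these data known. Named genes were all 28 members and, of each other list, up to 4 called genes by lowest adjusted p, or, where none was called, the 2 tested genes of highest level; Thra and Sphk2 were added after their overlap was seen, and Aanat, Asmt and Mtnr1b complete their list, and marker genes and Jun, Egr1 and Atf3 were named after their values were seen. Some genes that this rule names are not reported here. Alternatives were other scalings, filters, DESeq2 1.42.0, limma-voom (limma 3.58.1), a 0.01 threshold, a replicate block and left-out libraries. Promoter stretches came from RefSeq (GRCm38.p6), whose table matched 24 of 28 members.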

Additional observations from a re-analysis of the deposited data

Results flagged for a closer look

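In 94 sets of 4 libraries checked for 1 library standing apart from the other 3, 7 were found, where chance gives about 5% of such sets. In B6, the library B6 4 stood above the other 3 for Tef, at 159.8 CPM against 122 to 125 CPM. It did so for Per3 at 35.0 CPM against 23.2 to 25.1 CPM, and for Wee1 at 24.7 CPM against 17.8 to 18.9 CPM. For the glucocorticoid-responsive genes, B6 4 had 93.4 CPM of Tsc22d3 against 55.7 to 61.3 CPM, 33.7 CPM of Fkbp5 against 12.9 to 13.4 CPM, and 264.8 CPM of Sgk1 against 65.1 to 78.4 CPM. In C3H, the library C3H 1 stood apart in the mean log2 CPM of the Arntl arm minus that of the Dbp/Per arm, at -1.64 against -2.14 to -2.08.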

How the results depend on the processing

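With all libraries kept, Arntl, Per3, Hlf, Wee1 and Tsc22d3 stayed called under every other scaling, filter and test at a threshold of 0.05, and the calls missing at 0.01 were Tsc22d3 and Nr1d1. Nr1d1 was also lost with library totals alone. The main count was 4 members higher and 2 lower, with 3 higher and 1 lower in the Dbp/Per arm. The arm gave 5 higher with upper-quartile factors, robust dispersion or limma-voom. With library totals alone, 10 members were higher and 1 lower, and 7 and 0 in the arm; this scaling moved the median of all genes to 0.09. With no filter on low counts, 8 were higher, and 6 in the arm. At 0.01, 1 member was lower and 0 in the arm, with 1217 genes of the whole table higher and 1109 lower; with a mean of at least 100 counts 1327 genes were higher. Label numbers 3, 4 and 5 occur in both strains but did not pair the libraries (correlations of same-numbered deviations 0.01, 0.18 and -0.05); with the replicate block in those 6 libraries 7 members were higher and 1 lower, and 5 and 0 in the arm. With each library left out in turn, members higher ran from 4 to 11 and lower from 1 to 2, and in the arm from 3 to 7 and from 0 to 1. The following were chosen after seeing the data. Without the 4 libraries richest in pancreatic transcripts, 0 members were higher and 0 lower in either arm, 853 and 822 genes of the whole table were higher and lower, the Dbp/Per arm mean differed by 0.19 and the arm difference by -0.31. That set keeps B6 4 and C3H 1, whose arm differences crossed. Without C3H 3 and C3H 5, 1311 genes were higher and 1185 lower. Every reversal of sign was in a gene that had not passed. With library totals alone the log2 fold changes were 0.047 for Clock, 0.0081 for Nr1d2, 0.046 for Csnk1d and 0.0092 for Cdkn1a. With no filter they were -0.00041 for Npas2 and -0.0057 for Usp2. With the replicate block they were 0.067 for Clock, -0.025 for Bhlhe41 and -0.047 for Timeless, and in the same 6 libraries with no block 0.054 for Clock, -0.0050 for Bhlhe41 and -0.085 for Timeless. Without the 4 pancreas-rich libraries they were -0.0033 for Npas2, -0.24 for Dbp, -0.071 for Usp2, -0.012 for Arntl2 and -0.21 for Fkbp5, and without C3H 3 and C3H 5 -0.022 for Dbp and -0.044 for Usp2. Over left-out libraries the ranges that crossed 0 were -0.015 to 0.20 for Bhlhe41, -0.15 to 0.033 for Cdkn1a, -0.10 to 0.052 for Clock, -0.16 to 0.050 for Cry1, -0.054 to 0.0037 for Csnk1d, -0.035 to 0.22 for Dbp, -0.027 to 0.58 for Fkbp5, -0.26 to 0.067 for Klf9, -0.25 to 0.17 for Mtnr1a, -0.043 to 0.33 for Nfil3, -0.052 to 0.080 for Npas2, -0.14 to 0.021 for Nr1d2, -0.024 to 0.25 for Rora, -0.059 to 0.33 for Timeless and -0.044 to 0.12 for Usp2. The cause of these shifts was not tested. With 4 libraries a strain, depth limits the scarce members most, Arntl2 having 66 and 79 counts.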
